A study of Caenorhabditis elegans with 2 samples.

Results

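Transfer RNA genes were examined in a ChIP-seq map of ZTF-1, a zinc finger protein carrying a GFP tag, in Caenorhabditis elegans. The regions described here are stretches of the genome at nuclear tRNA genes that the authors' peak lists include. Overlapping entries of the ranked list that compared the replicates were merged, the interval of the entry with the highest signal value was kept, and a region was taken if that interval lay within 100 bp of a tRNA gene. Signal thus chose which overlapping entry was kept, and apart from that the rule used gene positions and no signal cutoff. It gave 288 of 43349 merged regions, of which 228 overlapped a tRNA gene. They lay at 318 of the 612 nuclear tRNA genes in the annotation.

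Chromatin came from whole L2 larvae at 28.5 hours, hatched from bleached cultures held as starved L1 larvae. All worms were of strain OP207, which carries wgIs207, a fosmid transgene in which ztf-1 is fused to 2XTY1, eGFP and 3XFLAG and which also holds unc-119. The fusion protein was precipitated with an anti-GFP antibody. There were 2 biological replicates in 1 group and no second condition, and the control experiment was not analysed here. Whole animals were used, so the cell types behind a signal cannot be told apart.

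RNA polymerase III transcribes tRNA genes from promoters inside the transcribed sequence, the A box and the B box. The factor TFIIIC binds these boxes and brings TFIIIB to the DNA just upstream, which then recruits the polymerase. The genes are short, present in many copies, and scattered both between and inside protein-coding genes.

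The deposited signal value is the strength that the authors' peak caller gave a peak, with no unit stated. At each of the 12 strongest regions at tRNA genes it equalled the value in the ranked list of the pooled data. The signal value and the pooled list are therefore not separate measurements there. A first and a second paired signal stand beside each entry, from the lists that the replicate comparison paired. The first paired signal had an interval of replicate 1's own list in 53.9% of entries and never one of replicate 2. The second had an interval of replicate 2's list in 44.9% and never one of replicate 1. IDR, the irreproducible discovery rate, measures how well a peak recurs in the paired lists, and low values mean good recurrence. No file gives read counts, so depth is unknown. The list is permissive. The median q-value was 0.936 over all merged regions and 0.934 at tRNA genes, where it ran from 0.0737 to 0.958, so most of these regions were weak calls. Nothing here is a test. The design has no groups to compare, regions are not replicates, and values at tRNA genes are set beside those of the other regions as a description.

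The sequences of 6 tRNA genes at strong regions show the promoter element found in most tRNA genes. They are the genes of highest signal after passing over genes on 1 chromosome whose sequences are not shown here, genes with an exact copy on it, and repeats of a sequence already given. Each is written 5′ to 3′ on the gene's own strand, from the RefSeq copy of assembly WBcel235 (ce11), and capitals mark the letters GTTCNANNC, the core of the B box. The first is the tRNA-Arg gene C18A11.t2 (chrX:8036685-8036757, minus strand). It is followed by the tRNA-Ile gene F57F5.t1 (chrV:12002176-12002260, plus strand) and the tRNA-Pro gene ZK899.t1 (chrX:9467729-9467800, minus strand). Next come the tRNA-His gene K01A6.t1 (chrIV:11721149-11721236, plus strand), the tRNA-Leu gene C04A11.t1 (chrX:13665555-13665673, plus strand) and the tRNA-Ser gene C53C7.t1 (chrX:13046578-13046659, plus strand).
C18A11.t2: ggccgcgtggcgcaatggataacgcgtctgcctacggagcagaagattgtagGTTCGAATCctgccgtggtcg
F57F5.t1: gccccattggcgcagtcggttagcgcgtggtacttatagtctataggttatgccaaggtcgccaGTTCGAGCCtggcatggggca
ZK899.t1: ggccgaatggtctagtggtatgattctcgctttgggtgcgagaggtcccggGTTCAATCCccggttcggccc
K01A6.t1: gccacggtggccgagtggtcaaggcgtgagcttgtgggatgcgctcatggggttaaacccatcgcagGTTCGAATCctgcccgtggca
C04A11.t1: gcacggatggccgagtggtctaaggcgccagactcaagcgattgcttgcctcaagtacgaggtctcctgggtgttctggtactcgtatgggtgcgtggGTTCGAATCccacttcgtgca
C53C7.t1: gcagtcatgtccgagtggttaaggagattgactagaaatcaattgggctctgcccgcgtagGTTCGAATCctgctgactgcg

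These letters, searched on the gene's strand, occurred in 587 of the 612 tRNA genes (95.9%). Searched on both strands of the kept intervals, they occurred in 211 of the 288 regions at tRNA genes (73.3%) and in 19.8% of the other regions. The share at tRNA genes follows from the choice of the regions. Among regions at tRNA genes the median signal was 37.1 where the letters were present and 33.9 in the 77 where they were absent. Only 228 of the 288 kept intervals overlapped a tRNA gene. Absence of the letters from an interval therefore need not mean absence from the gene. Of the 25 tRNA genes without these letters 11 had a region (44.0%), against 52.3% of those with them.

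Summits were denser at tRNA genes than elsewhere in the genome. Within 100 bp of the centre of a tRNA gene there were 102 kept summits, or 84.1 per 100 kb of sequence at that distance. The density was 53.0 per 100 kb at 100 to 200 bp, 59.2 at 200 to 400 bp, and 41.4 at 1000 to 2000 bp. Beyond 2000 bp it was 43.2, so the value within 100 bp was 1.95 times the value far away.

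The replicates' own ranked lists, which were called separately, were also densest within 100 bp over all chromosomes. In replicate 1 the density fell from 49.5 per 100 kb within 100 bp to 21.1 beyond 2000 bp, a ratio of 2.34. In replicate 2 it fell from 37.1 to 18.3, a ratio of 2.02. The rise was found on the X chromosome (82.2 against 43.2) and on the autosomes (85.8 against 43.2) of the replicate-compared list. It was broader in replicate 2, where the density was still 33.5 at 200 to 400 bp, against 29.1 in replicate 1. On the autosomes alone replicate 2 was not densest within 100 bp, with 31.6 there, 36.7 at 100 to 200 bp and 33.9 at 200 to 400 bp. Its value on X was 43.8 within 100 bp, and replicate 1 had 45.6 on X and 52.7 on autosomes.

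Base composition moved with this pattern. The median GC content of the window around the summit, 50 bp to each side, was 50.5% for the 55 regions with their summit inside a tRNA gene and 38.6% for the other regions. Across the genome outside tRNA genes, summit density rose with GC content, from 36.4 per 100 kb at 30 to 35% GC to 82.0 at 50 to 55%. Inside tRNA genes it was 125 per 100 kb at 45 to 50% GC and 115 at 50 to 55%, against 70.3 and 82.0 elsewhere at the same GC content. These are 17 and 18 summits. At 40 to 45% GC the values were 115 (8 summits) and 59.3, and at 55 to 60% they were 134 (9 summits) and 97.1. Density inside tRNA genes was above that elsewhere in these ranges. The ranges at the ends held 2 summits (35 to 40% GC, 117 against 47.6) and 1 summit (60 to 70%, 91.7 against 97.0). What part GC content has in the pattern was not tested.

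**Figure D1:**
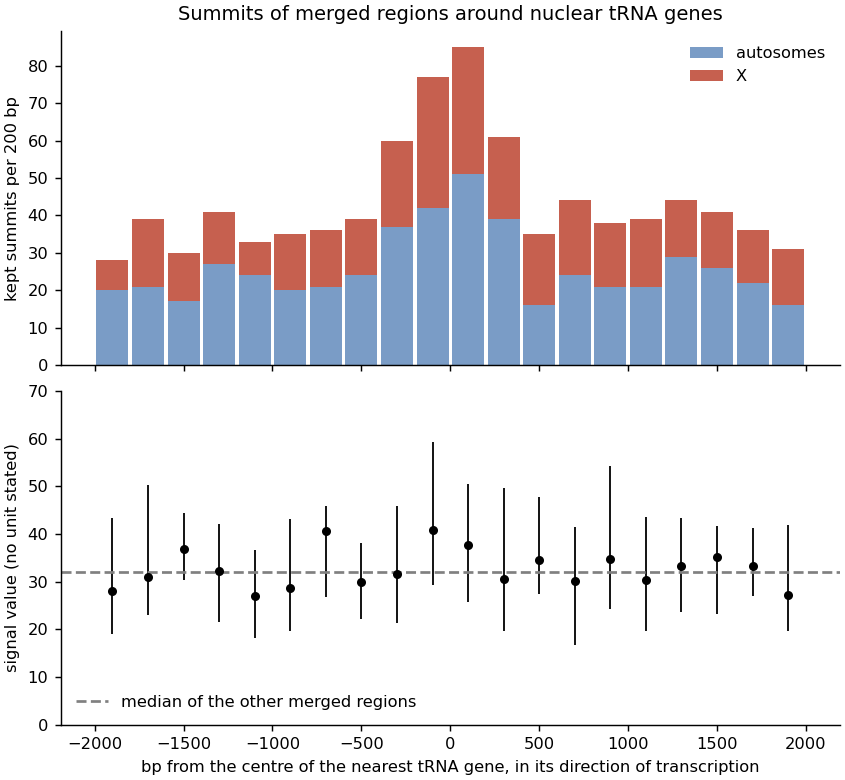
Kept summits of merged regions (top, counts in bins of 200 bp, autosomes and X stacked) and their signal (bottom, medians with the quartiles as bars) by distance in bp from the centre of the nearest nuclear tRNA gene. The bins on either side of the centre held 77 and 85 summits, and the outermost bins held 28 and 31, while the quartiles of the signal overlapped in all bins.

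Summits were found on both sides of the genes. The 200 bp upstream of the gene centre held 77 summits and the 200 bp downstream held 85. Their median signals were 40.9 and 37.7. The summit itself lay inside a tRNA gene in 55 of the 288 regions (19.1%). With a kept interval of 540 bp, a region may belong to a tRNA gene by its edge alone, and 60 regions reached the gene only through the allowed gap.

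At the edge of the 100 bp limit the values were mixed. The region at F21A3.t1, 99 bp away, had a signal of 67.7 and that at T10B9.t1, 98 bp away, had 2.72. Just outside, the region nearest to K11E4.t6 had a signal of 76.7 and that 102 bp from K08B5.t2 had 38.8.

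Counted by gene, 52.0% of nuclear tRNA genes had a merged region within 100 bp. A stretch of 72 bp, the median length of a tRNA gene, had one at 34.7% of all possible placements on the nuclear chromosomes. Among other classes of noncoding RNA gene the shares, which gene length also affects, were 55.5% of 346 snoRNA genes, 54.3% of 129 snRNA genes, 48.3% of 261 miRNA genes and 49.6% of 7764 genes annotated as ncRNA. The share was 14.7% of 15363 piRNA genes, whose median length is 21 bp.

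The signal at tRNA genes was a little above that of other regions. Its median was 36.7 (quartiles 24.0 and 50.5, range 2.60 to 114.8, n = 288), against 32.0 (quartiles 21.5 and 44.0, n = 43061), a ratio of 1.15. The first paired signal had medians of 19.7 and 16.9 (ratio 1.16) and the second 15.9 and 14.6 (ratio 1.09). In both paired signals, then, tRNA genes lay above the other regions, by less in the second. Among regions that came from 1 entry the median signals were 25.6 (n = 88) and 24.7 (n = 16258), a ratio of 1.03. Among those merged from several entries they were 41.5 (n = 200) and 36.2 (n = 26803), a ratio of 1.15.

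Over all merged regions, the difference between tRNA genes and the others was larger in the upper part of the range. Of the 288 regions, 56 (19.4%) were among the highest 10% of all merged regions by signal, as 9.93% of the other regions were, and 37 (12.8%) among the highest 5%. At the lower end, the first quartile was 24.0 against 21.5. The ratio of medians was 1.05 when the comparison was limited to 3259 regions at other noncoding RNA genes, whose median was 34.9. By class, the median signal was 40.8 at snoRNA genes, 38.5 at miRNA genes, 29.6 at snRNA genes and 29.7 at piRNA genes.

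GC content moved with the signal too, for summits outside tRNA genes. Their median signal rose from 29.1 at 30 to 35% GC to 39.1 at 50 to 55%. Among regions within the middle GC range of those at tRNA genes (33.7 to 46.5%), the median signal was 37.03 at 148 tRNA regions and 32.5 at 25167 others, a ratio of 1.14. In a narrower comparison chosen after seeing the data the order was the opposite. For summits inside tRNA genes with 46.0 to 53.5% GC (28 regions) the median signal was 35.2, below the 37.1 of the 6947 other regions in that range, a ratio of 0.949. Without that limit, regions with the summit inside the gene had a median of 37.5, or 1.17 times the other regions. By GC range, summits inside tRNA genes had a lower median signal than those elsewhere at 50 to 55% (32.9 against 39.1, 18 inside). It was higher at 40 to 45% (49.995 against 33.9, 8 inside) and at 45 to 50% (37.5 against 36.02, 17 inside). It was also higher at 55 to 60% (50.1 against 40.9, 9 inside). The end ranges, also higher, held 2 summits (35 to 40%, 34.2 against 31.4) and 1 summit (60 to 70%, 72.2 against 43.9).

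**Figure D2:**
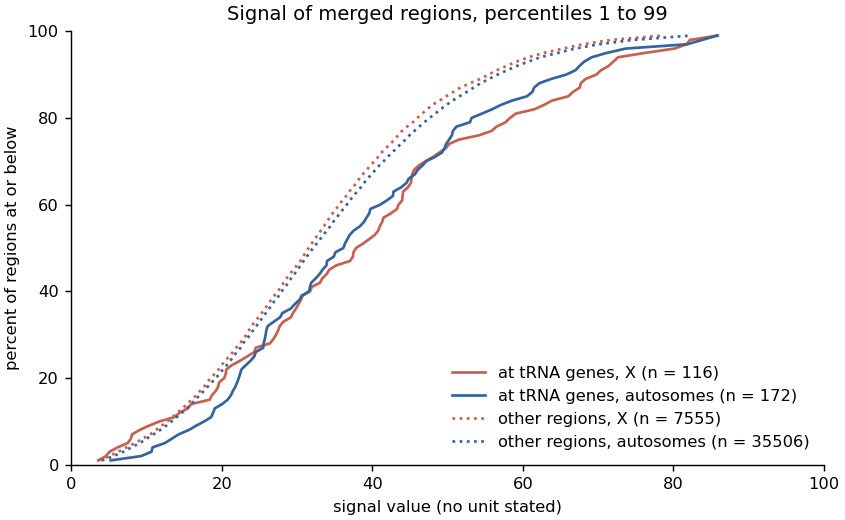
Percentiles 1 to 99 of the signal value (no unit stated) of merged regions at tRNA genes (solid) and of other merged regions (dotted), on X and on autosomes. From the quartiles up both solid curves lie to the right of the dotted ones, and at the low end the X curves cross, with medians of 37.8 (X) and 36.1 (autosomes) against 31.5 and 32.1.

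Few regions at tRNA genes recurred well enough to pass a threshold. At the authors' IDR of 0.01, 2 of 288 passed (0.694%, exact Clopper-Pearson 95% interval 0.0842 to 2.49%), where 0.475% of all merged regions did, so this share was near the background. At an IDR of 0.05, 14 passed (4.86%, interval 2.68 to 8.02%), against 2.09% of all merged regions. No region at a tRNA gene had a q-value of 0.05 or less (0%, interval 0 to 1.27%), and 0.06% of all merged regions did. These intervals cover counting error only, and they treat regions as independent although all came from the same libraries. The share past an IDR of 0.05 was 8.42% of 190 regions at snoRNA genes, 8.96% of 67 at snRNA genes and 6.36% of 110 at miRNA genes. These are above the share at tRNA genes, but the classes are small and no intervals were made for them. At ncRNA genes it was 4.07% of 2971 regions. The share in the highest 10% by signal was 26.8% at snoRNA, 19.1% at miRNA and 13.4% at snRNA genes, against 19.4% at tRNA genes.

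The 14 regions were spread over isotypes. They lay at genes for tRNA-Arg, Ile, Gly, Glu, His, Lys, Leu, Ser, Thr and Met, with 7 on X and 7 on autosomes. In all 14 the first paired signal was at least 35.5 and the second at least 26.4. The plot of the paired signals shows them at its upper right.

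**Figure D3:**
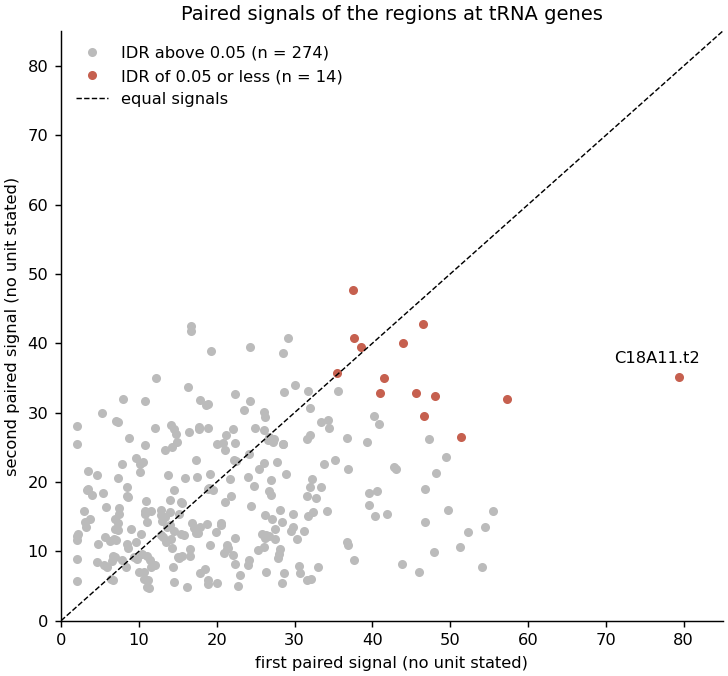
First and second paired signals (no unit stated) of the 288 regions at tRNA genes, with the 14 that have an IDR of 0.05 or less in red. The strongest, at C18A11.t2, had 79.4 and 35.1, and the grey points, the other 274, reach 55.5 in the first signal and 42.5 in the second.

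The strongest region lay at C18A11.t2, a tRNA-Arg gene on X, with its summit at position 8036499, outside protein-coding genes and 222 bp downstream of the gene centre. Its signal was 114.8, place 47 of all merged regions, with an IDR of 0.00502 and a q-value of 0.0737. The own list of replicate 1 gave it 79.4, and that of replicate 2 gave 35.1. It was in the authors' thresholded lists of the replicate comparison, of the pooled data and of replicate 1, and not in that of replicate 2. The 61 bases around its summit, shown because they lie outside the tRNA gene, hold 26.2% G and C and span chrX:8036469-8036529 on the plus strand.
C18A11.t2 summit: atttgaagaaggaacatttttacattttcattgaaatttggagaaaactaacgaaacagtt

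The other region past an IDR of 0.01 covered M01E10.t1 and M01E10.t2, a pair of tRNA-Glu genes on chromosome III, 11181 bp from the nearest protein-coding start. Its signal was 84.0 (place 367, IDR 0.00869), with 46.5 in replicate 1 and 42.8 in replicate 2. The signals of the replicates were closer here than at C18A11.t2. The region at C04A11.t1, a tRNA-Leu gene on X, was in the thresholded list of the pooled data. Its signal was 82.0, with 45.5 and 32.8 in the replicates and an IDR of 0.0275.

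The second strongest region, on chromosome V, had a signal of 91.1 and paired signals of 57.3 and 32.0 (IDR 0.0142). It lay 5 bp from the tRNA-Ile gene F57F5.t1, and its summit was at -316 bp from that gene's centre, on the upstream side, and 105 bp from the start of gcy-33, which encodes a guanylyl cyclase. The 61 bases around this summit (chrV:12001872-12001932, plus strand, 37.7% G and C) are shown because they lie outside the tRNA gene.
F57F5.t1 summit: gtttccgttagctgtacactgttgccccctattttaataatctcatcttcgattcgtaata

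At several of the strongest regions the second paired signal was low. At ZK899.t1, a tRNA-Pro gene on X, the signal was 86.5 and the paired signals were 54.1 and 7.70 (IDR 0.595), although replicate 2's own list held a region there with a signal of 29.1. At C37A2.t1, a tRNA-Cys gene within the cyclin E gene cye-1, the signal was 83.5, with 54.5 in the first pair and 13.6 in the second (IDR 0.350). At the tRNA-Pro genes F46G11.t1 and F46G11.t2 the signal was 79.2, with 51.2 and 10.6 (IDR 0.528). Neither of the last 2 loci had a region in the own list of replicate 2, and the other 10 of the 12 strongest were in both own lists.

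Others among the 12 strongest had more even signals. The region at T22A3.t1, a tRNA-Gly gene in set-18, had a signal of 84.2, with 37.5 and 47.7. It was the only one of the 12 in which the second paired signal was higher. At K01A6.t1, a tRNA-His gene in magi-1, the signal was 83.0, with 41.5 and 35.04. At M02F4.t1 (tRNA-Gly) and M02F4.t2 (tRNA-Glu) on X the signal was 81.5, with 44.0 and 40.1, and the summit lay at the centre of M02F4.t2. This was the only one of the 12 with its summit inside a tRNA gene.

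The 2 remaining regions of the 12 were at Y105C5B.t4, a tRNA-Asp gene in Y105C5B.9 (signal 89.6, pairs 49.5 and 23.6, IDR 0.0749), and at W03G11.t1, a tRNA-Lys gene on X (82.3, pairs 51.4 and 26.4, IDR 0.0450). At the other end, B0228.t1 (tRNA-Gln) had a signal of 2.60, T10B9.t1 (tRNA-Lys) 2.72, and the lower of the regions at F15A8.t1 (tRNA-Glu) 3.11. At T10B9.t1 the paired signals were 40.3 and 15.1, so a low signal value did not always go with low paired signals.

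The paired signals ranked the regions at tRNA genes in only loosely the same order. Spearman's rho between them was 0.25 over the 288 regions and 0.24 over the other regions. The points share libraries and list, and rho is given as a description. The first paired signal was over 2 times the second in 22.9% of regions at tRNA genes and 20.4% of other regions. The reverse held for 15.6% and 16.2%. In the own ranked lists, 48.6% of the regions at tRNA genes had an overlapping region in replicate 1 and 43.8% in replicate 2, against 41.7% and 36.4% of other regions. Both lists held 69 of the 288 (24.0%, against 19.3% of other regions), and neither held 91 (31.6%, against 41.2%).

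The X chromosome carried 276 of the 612 nuclear tRNA genes (45.1%), and 116 of the 288 regions (40.3%). Of the other merged regions 17.5% were on X. A region was found at 49.3% of tRNA genes on X and at 54.2% of those on autosomes. The share by chromosome ran from 49.1% on II to 57.8% on III, and all 6 chromosomes were above the 34.7% of all placements.

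Signals on X and on autosomes were close. The median was 37.8 on X (quartiles 23.4 and 51.5, n = 116) and 36.1 on autosomes (24.3 and 50.2, n = 172), a ratio of 1.05. The paired signals had the opposite order, with 18.9 on X against 20.5 on autosomes in the first and 15.6 against 16.2 in the second. The order of X and autosomes at tRNA genes thus depended on the signal used. The other regions had medians of 31.5 on X and 32.1 on autosomes. Of the 12 strongest regions 6 were on X.

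An IDR of 0.05 or less was reached by 7 of 116 regions on X (6.03%, interval 2.46 to 12.04%) and by 7 of 172 on autosomes (4.07%, interval 1.65 to 8.21%). These intervals, which again cover counting error only, overlap widely. Among the other regions the shares were 1.46% on X and 2.20% on autosomes.

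**Figure D4:**
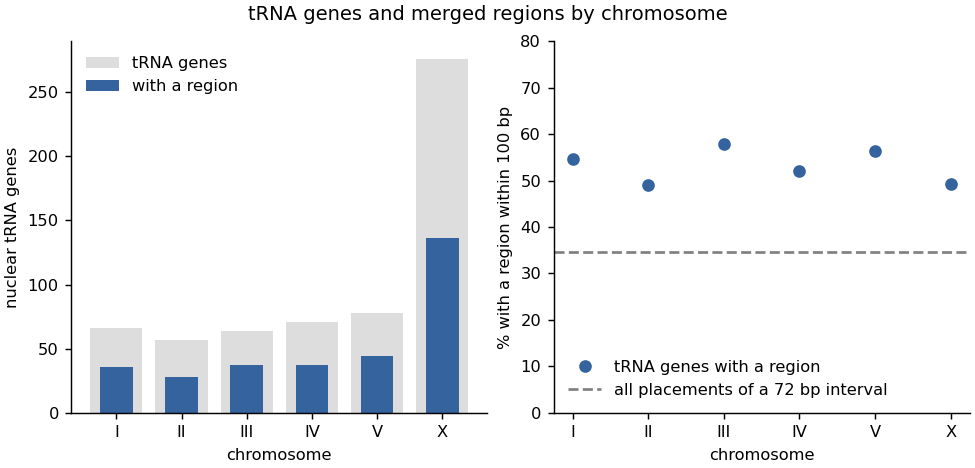
Nuclear tRNA genes per chromosome and those with a merged region within 100 bp (left, counts), and the same as a percent of genes (right), with the share of all placements of a 72 bp stretch as a dashed line. X holds 276 genes, 136 of them with a region, and all chromosomes lie above the line at 34.7%.

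The settings of the genes differed between X and autosomes. On X, 66.4% of the regions at tRNA genes had their summit outside protein-coding genes, against 34.3% on autosomes. Of the other regions 37.7% and 30.3% did. A protein-coding start lay within 500 bp of the summit in 8.62% of the regions on X and in 20.3% of those on autosomes. Over both, it did in 45 regions (15.6%, against 19.8% of other regions).

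Near protein-coding starts the signal at tRNA genes was not above that of other regions. Those 45 had a median of 30.5, against 32.2 for other regions near starts, a ratio of 0.949. The 243 without a start nearby had 37.4 against 32.0, a ratio of 1.17. In the first paired signal the order at starts was the reverse, with 20.1 at tRNA genes and 16.9 at other regions, and the second had 13.8 and 14.7. Regions with the summit in an intron of a protein-coding gene had a median of 38.8, against 31.8 for other intronic regions. With the summit outside protein-coding genes the medians were 35.1 and 29.7, and with it in an exon 36.5 and 34.2.

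The 31 regions that took in 2 or 3 tRNA genes had a median signal of 43.3, against 35.3 for the 257 with 1 gene. The share of tRNA genes with a region was 51.7% of the 290 inside a protein-coding gene and 52.2% of the 322 outside. This near equality joins opposite orders. On X the share was 43.8% of 96 genes inside and 52.2% of 180 outside, and on autosomes it was 55.7% of 194 inside and 52.1% of 142 outside. The median of the strongest signal per gene was 37.9 inside and 37.5 outside.

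Many tRNA genes are exact copies of each other, and reads from them may not be placed to 1 locus. The 612 genes held 200 distinct sequences. Genes with a sequence of their own had a region in 55.9% of 143 cases, genes with 2 to 5 identical copies in 43.9% of 82, those with 6 to 12 in 54.8% of 157, and those with 13 or more in 50.4% of 230. The shares did not run in order of copy number. The medians of the strongest signal were 38.9, 36.7, 35.02 and 39.0. How the authors placed such reads is not given in the sources used here, and the intervals are several times longer than a tRNA gene. The strongest regions included both kinds, since F57F5.t1, K01A6.t1 and C04A11.t1 have no exact copy while the sequence of ZK899.t1 occurs 24 times.

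An isotype, the amino acid that a tRNA carries, was given by the RefSeq annotation for 607 of the 612 genes, in 21 classes. The share of genes with a region was highest, apart from the lone selenocysteine gene, for tRNA-Cys (10 of 13, 76.9%), tRNA-Glu (29 of 41, 70.7%), tRNA-Met (13 of 20, 65.0%) and tRNA-Arg (28 of 44, 63.6%). It was lowest for tRNA-Gln (8 of 27, 29.6%), tRNA-Ile (11 of 29, 37.9%) and tRNA-Asn (8 of 20). With so few genes each, these shares carry wide counting error.

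The signal varied between isotypes as well. The median of the strongest signal per gene was highest for tRNA-His (52.0) and tRNA-Thr (49.6), with a region at 10 of 20 and 15 of 34 genes. It was lowest for tRNA-Phe (29.1, a region at 6 of 14 genes) and tRNA-Val (31.6, 18 of 31). The isotypes with the highest shares, tRNA-Cys, Glu and Met, had medians of 44.3, 34.0 and 44.0, and tRNA-Gln, with the lowest share, had 33.0. Arg genes had a median of 33.4, although the strongest region of all lies at one of them. The selenocysteine gene K11H12.t1 had a region with a signal of 44.5. None of the 6 tRNA-Asn genes on X had a region, against 8 of those on autosomes, out of 20 tRNA-Asn genes in all. Over all isotypes, 49.3% of tRNA genes on X had one. Of the tRNA-Asn genes on X, ZK154.t1, ZK154.t2 and ZK154.t5 lie close together in deg-1. The lack of regions at tRNA-Asn genes on X was noticed after the values were seen, and it concerns few genes.

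**Figure D5:**
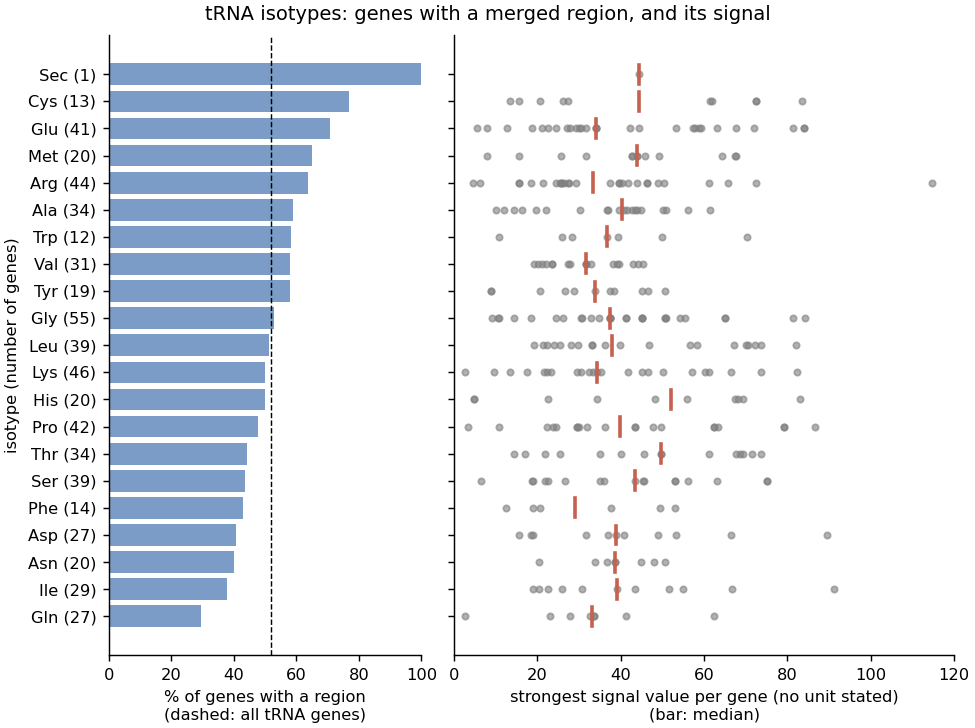
Percent of tRNA genes with a merged region within 100 bp by isotype (left, gene numbers in brackets, dashed line at 52.0% for all) and the strongest signal (no unit stated) of each gene with a region (right, dots; bar, median). Shares run from 29.6% for Gln to 76.9% for Cys among isotypes with more than 1 gene, and signals within an isotype spread more widely than the medians do between isotypes.

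Genes for the polymerase III machinery and for tRNA processing were looked up as a list. Of 14 named genes 13 had a merged region at the gene, and in 2 of these the strongest had an IDR of 0.05 or less. By the same look-up 82.9% of all 19973 protein-coding genes had a region, and 3.92% had a strongest region past that IDR. Of the 12 protein-coding genes of the list 11 had a region, which is near that background, and 0 passed the IDR. Both genes past the IDR make noncoding RNAs, for which no background by this look-up is given here. They were rpr-1, the RNA subunit of RNase P, which trims the 5′ ends of tRNAs (signal 117.7, pairs 61.5 and 57.8, IDR 0.000568), and mrpr-1, the RNA of RNase MRP (90.1, pairs 45.3 and 39.3, IDR 0.0137). Both paired signals of rpr-1 were above those of all regions at tRNA genes except the first signal of C18A11.t2.

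None of the 12 protein-coding genes of the list passed an IDR of 0.05. Their strongest signals ran from 14.6 at mafr-1, the homologue of the polymerase III repressor MAF1, to 76.0 at rpc-2, a polymerase III subunit gene (IDR 0.160), with a median of 37.0, against 40.6 over all protein-coding genes with a region. The largest-subunit gene rpc-1 had 44.8, and brf-1, for a TFIIIB subunit, had 47.6. The TFIIIC genes tftc-1, tftc-3 and tftc-5 had 24.9, 44.0 and 33.2, and tbp-1, for the TATA-binding protein, had 23.1. Among processing genes, hoe-1 (RNase Z) had 40.4, rtcb-1 (the tRNA ligase) 28.8 and xpo-3 (the tRNA exportin) 37.0, while hpo-31 had no region. Long genes can hold several regions, so these values are not on the same footing as those of tRNA genes. None of the 16 annotated genes of the 5S rRNA family, which polymerase III also transcribes, had a merged region within 100 bp. Of the 16, 11 are annotated under the same name, rrn-4.2. How the authors placed reads from repeated genes is not given in the sources used here, and why these genes had no region was not tested.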

How the data were processed

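The analysis used the authors' deposited peak lists from 2 anti-GFP ChIP-seq replicates, 4 ranked and 4 thresholded by IDR, on assembly ce11 per the deposited text notes. The sources used here name no peak caller or aligner, and depth is unknown. The deposited signal value (column 7), the paired signals (columns 15 and 19), the −log10 q-value and the −log10 IDR were read by their places, since the deposited lists have no header. Thresholded lists held what passed an IDR of 0.01 in the ranked ones. Gene models were from Ensembl release 115 (WBcel235), and 22 mitochondrial tRNA genes were left out. Entries overlapping by 1 bp or more were merged. Density was counted per position by distance to the nearest tRNA gene centre. Steps were tested on simulated data (Python 3.11.15, pandas 2.3.3, scipy 1.17.1). Regions named were the 12 strongest, all in a thresholded list, the 5 strongest on X and on autosomes, the 3 weakest and those at the distance limit; others were named after their values were seen. The motif letters, the densities by distance and GC content, and 1 alternative at equal GC content were chosen after seeing the data. The regions and lists were chosen with earlier results of these data known.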

Additional observations from a re-analysis of the deposited data

How the results depend on the processing

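No paired analysis was possible because there is 1 group. Without a replicate (the other's paired signal, or its own ranked list for counts and shares), regions at tRNA genes numbered 152 to 163, the signal ratio was 1.09 to 1.16, tRNA genes with a region were 28.4 to 30.6%, an IDR of 0.05 or less was reached by 0 to 0.613% (0 or 1 region, where 0.276% and 0.254% of all regions of those lists did), the summit lay inside a gene in 11.8 to 15.3%, and the ratio of X to autosomes turned to 0.920 to 0.966. That ratio was 0.974 with a distance of 500 bp, 0.965 with whole merged extents, 0.965 among regions with an IDR of 0.1 or less, and 1.12 with overlap. Among regions with an IDR of 0.1 or less there were 26 at tRNA genes, at 4.90% of genes, with a signal ratio of 0.996 and 53.8% on X. Of these 26, 3.85% were in the highest 10% by signal of the regions with that IDR, not of all merged regions. The lowest of the 26 by signal, at F14B4.t1, had place 2884 of all merged regions, within their highest 6.65%. With 500 bp there were 439 regions, at 74.7% of genes, 14.8% in the highest 10% and 12.5% with the summit inside a gene. Requiring overlap gave 41.3% of genes and 24.1% of summits inside, whole merged extents 68.1% of genes, and leaving out regions near coding starts 44.3%. Past an IDR of 0.01 were 0.694%, past a q-value of 0.05 were 0%, and 12.8% were in the highest 5%. The signal ratio was 1.05 against other noncoding genes. It was 0.949 for summits inside tRNA genes against other regions at 46.0 to 53.5% GC, an alternative chosen after seeing the data. Second paired summits lay inside a gene in 13.5%. The share past an IDR of 0.05 was not run among regions with an IDR of 0.1 or less, where the setting itself fixes it. The causes of these shifts were not tested. Of 71 values under alternatives the other 38 kept their direction and shifted less.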
